A study of Mus musculus with 12 samples.

Results

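The loci described here are the 200 provisionally named rows of a mouse liver count table that drew the most sequencing reads. Provisional means a name made of Gm and a number (a gene model of the mouse genome informatics project), LOC and a number (an NCBI placeholder), or ending in Rik (a RIKEN cDNA clone). Of the 36228 rows of the table, 13886 carried such a name, and 7619 of those had no read in any library. A set of 9 loci was left out by name, with earlier genotype results of these data in view, and the 200 rows were then chosen by the sum of their read counts over all libraries from the remaining 13877. Abundance is therefore given below as a description. Because 6 of the 9 loci left out would have ranked among the 200 by their reads, counts of loci that differed with genotype are counts after that removal.

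The study compared liver RNA of IDH2 KO mice with that of WT littermates to ask which hepatic transcripts change when IDH2, the NADP-dependent isocitrate dehydrogenase of mitochondria, is missing. The IDH2 KO animals carried a germ-line Idh2-/- deletion, so every cell of the body lacked the gene, and all animals were C57BL/6N and 8 to 10 weeks old. There were 5 IDH2 KO libraries (2 from males, 3 from females) and 7 WT libraries (3 from males, 4 from females). Counted reads ranged from 15323300 to 25019649 per IDH2 KO library and from 17055853 to 24084696 per WT library.

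Provisional names cover several kinds of transcript. Long non-coding RNAs (lncRNAs) are transcribed and often spliced but encode no known protein. Processed pseudogenes are copies of spliced messenger RNAs that were written back into the genome, and because they resemble the coding gene so closely, short reads of one can be placed on the other. A further set consists of ordinary protein-coding genes that still bore a clone name when the table was made.

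The labels were checked first. Idh2 had 1 to 7 reads in IDH2 KO livers, against 967 to 2363 reads in WT livers, and the Y-linked gene Eif2s3y had 85 to 187 reads in males, against 0 reads in every female. The 10 hepatocyte markers summed to between 145173 and 271696 RPM (counted reads scaled to the library total) in IDH2 KO livers and between 161725 and 318051 RPM in WT livers, although Cps1, the first enzyme of the urea cycle, was listed at 0 in all libraries, as were Dcn, Spp1 and C1qc among the other cell type markers. Markers of sinusoidal endothelium summed to at most 84.3 RPM in IDH2 KO livers and 108 RPM in WT livers. The summed markers of T, NK and B cells reached 29.5 RPM in IDH2 KO livers, against 117 RPM in WT livers, where the highest value came from WT male 1. Erythroid markers, mostly globins, summed to 149, 27.1 and 179 RPM in IDH2 KO females 1 to 3 and 370 and 272 RPM in IDH2 KO males 1 and 2, against 18.9, 24.2 and 133 RPM as the lowest, median and highest in WT livers, and their part in the genotype differences below was not tested.

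Among the libraries, 3 stood apart. Mitochondrial transcripts took 29.0% of the reads in IDH2 KO female 3, against 22.4% in WT female 2 and 25.7% in WT male 2, while the other 9 libraries lay between 39.7% and 49.98%. IDH2 KO female 3 also had reads on only 8531 genes, against 10482 to 12873 genes in the other libraries. Where a comparison below turns on 1 of them, the value without it is given or the library is named.

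All 200 loci had reads in each of the 12 libraries, and all 200 passed the filter on low counts. Their summed reads ran from 1657 to 1226284 with a median of 3417, and together they held 3891341 of 241346756 reads, or 1.61%. That is 84.6% of all reads that fell on provisionally named loci. The reads were concentrated in a few rows. The first locus alone held 31.5% of the reads of the 200, the first 3 held 65.4%, the first 12 held 77.6% and the first 50 held 88.2%. The lower edge was shallow. E130112N10Rik at rank 200 had 1657 reads and LOC105245359 at rank 199 had 1675, while the first row outside, Gm16070, had 1648 and the next, Gm4997, had 1638.

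**Figure D1:**
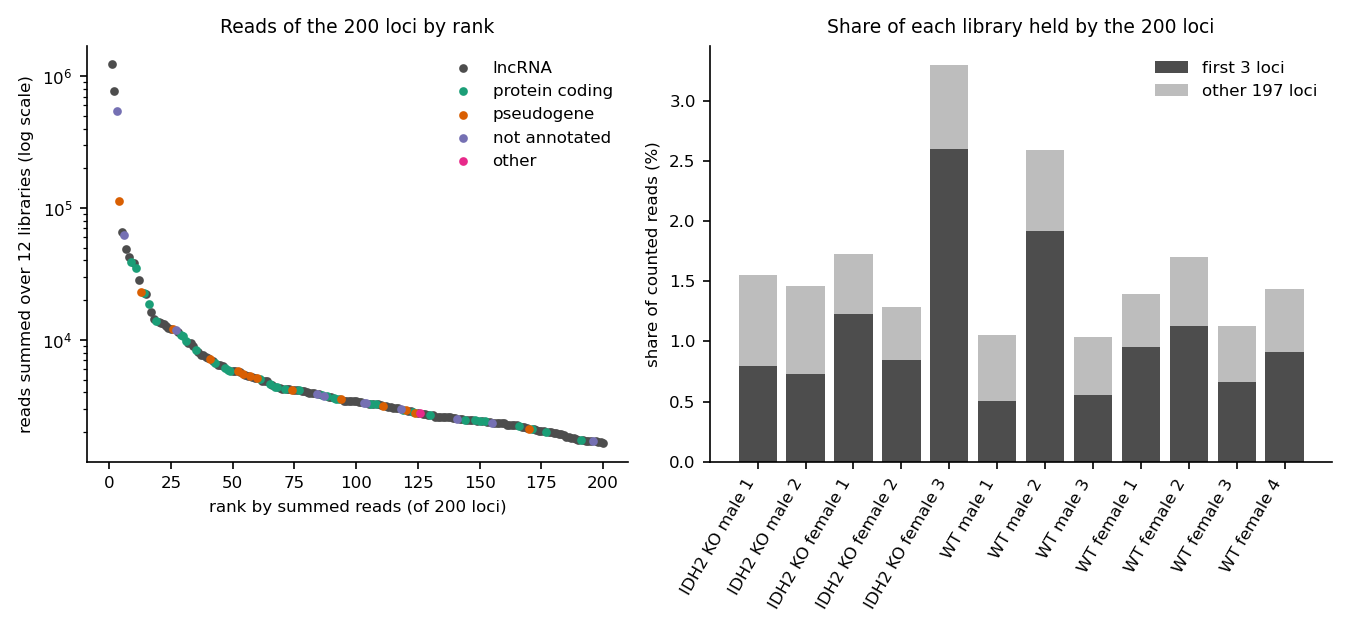
Left, reads summed over the 12 libraries (log scale) against rank for the 200 loci, coloured by annotation class. Right, the share of counted reads held by the first 3 loci and the other 197 loci in each library, where IDH2 KO female 3 (3.30%) and WT male 2 (2.59%) stand above the rest.

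By annotation the 200 loci were 137 lncRNAs, 37 protein-coding genes, 14 pseudogenes, 1 locus of another class and 11 that appeared in neither annotation used. RefSeq held 185 of them with a position, and GENCODE held 125 with an exon model. The lncRNAs carried 71.4% of the reads, the 11 unannotated loci 16.6%, the protein-coding genes 6.99% and the pseudogenes 5.01%. A few rows held most of this in 3 of the classes. LOC108167755 (1226284) and Gm41051 (773434) led the 2777524 lncRNA reads. Gm33916 held 546343 of the 644073 unannotated reads, and Gm15796 held 112154 of the 194914 pseudogene reads. The loci were spread over 20 chromosomes, from 3 to 14 on each, with the 14 on chromosome 8, 6 on X and none on Y. Simple gene models prevailed. A single RefSeq transcript was listed for 136 of the 185 positioned loci (73.5%), against 62.9% of the other provisionally named loci and 47.0% of all matched rows. These compared rows were matched by symbol alone and had at least 1 listed transcript. The 185 were also matched by gene number or older name and were not required to have one, so the percentages are not quite alike.

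The 3 loci at the top were LOC108167755, Gm41051 and Gm33916. LOC108167755 is a lncRNA that RefSeq now calls Gm46178, at chr1:191120902-191125328 of GRCm38.p6. Gm41051 is a lncRNA at chr13:107121641-107130108, and Gm33916 was in neither annotation, so its position is not given. No function is assigned to any of them here.

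LOC108167755 had 6334, 5497 and 13182 CPM (counts scaled to the library size with TMM factors) in IDH2 KO females 1 to 3 and 3224 and 2834 CPM in IDH2 KO males 1 and 2, against a lowest value of 2187, a median of 4222 and a highest value of 7493 CPM in WT livers. The groups overlapped, with IDH2 KO female 3 the highest library and WT male 2 the next. Gm41051 had 3736, 2882, 13931, 2098 and 1745 CPM in the same IDH2 KO livers, against 1709, 2474 and 3492 CPM as the lowest, median and highest in WT livers. Its mean was 4878 ± 5118 CPM in IDH2 KO livers (SD, n = 5), against 2455 ± 583 CPM in WT livers (SD, n = 7), and without IDH2 KO female 3 the IDH2 KO mean was 2615 ± 886 CPM (n = 4). Gm33916 had 2778, 2111, 4037, 1262 and 1189 CPM in IDH2 KO livers, against 1227, 1911 and 3881 CPM as the lowest, median and highest in WT livers.

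These 3 loci largely set how much of a library the 200 loci took. The share of counted reads was 1.73%, 1.28% and 3.30% in IDH2 KO females 1 to 3 and 1.56% and 1.46% in IDH2 KO males 1 and 2, against a lowest share of 1.03%, a median of 1.40% and a highest of 2.59% in WT livers. The means were 1.86 ± 0.816% (SD, n = 5) in IDH2 KO livers and 1.48 ± 0.546% (SD, n = 7) in WT livers, a difference smaller than either SD. Without IDH2 KO female 3 the IDH2 KO mean was 1.51 ± 0.185%, and without WT male 2 the WT mean was 1.29 ± 0.264%. Leaving out the first 3 loci, the remaining 197 took 0.623 ± 0.148% of the reads in IDH2 KO livers and 0.530 ± 0.0759% in WT livers. The first 3 did not keep a fixed proportion to each other. The CPM of LOC108167755 divided by that of Gm41051 was 0.946 in IDH2 KO female 3 and 3.03 in WT male 2, and lay between 1.28 and 1.91 in the other 10 libraries.

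The next rows were several times lower. Gm31458, a lncRNA on chromosome 15, had 249, 168, 785, 459 and 268 CPM in IDH2 KO females 1 to 3 and males 1 and 2, against 159, 221 and 233 CPM as the lowest, median and highest in WT livers. All IDH2 KO values except that of female 2 lay above the WT range, yet the difference did not pass the test across all genes (log2 fold change 0.85 ± 0.31, SE; adjusted p = 0.581 by edgeR's quasi-likelihood test), and it was 0.38 without IDH2 KO female 3 and 0.26 without all 3 libraries that stood apart. Gm33784, a lncRNA on the X chromosome, ranged from 60.05 to 317 CPM in IDH2 KO livers, against 103 to 228 CPM in WT livers. Gm10768, a lncRNA on chromosome 19, ranged from 148 to 226 CPM in IDH2 KO livers, against 98.4 to 192 CPM in WT livers. Gm39021, which was in neither annotation, ranged from 189 to 306 CPM in IDH2 KO livers, against 169 to 362 CPM in WT livers. WT female 2 (362 CPM) and WT male 2 (333 CPM) lay above all other libraries, of which IDH2 KO female 3 (306 CPM) was the highest.

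1300017J02Rik is the only protein-coding gene among the first 10 loci. RefSeq gives it the older name mICA, for the inhibitor of carbonic anhydrase, a secreted protein of the transferrin family. It had 123, 142, 63.9, 93.9 and 149 CPM in IDH2 KO livers, against 130, 167 and 282 CPM as the lowest, median and highest in WT livers, where WT female 2 (282 CPM) and WT male 2 (223 CPM) were above every other library. The log2 fold change was -0.68 ± 0.25 (SE) and did not pass the test (adjusted p = 0.588, edgeR), and it was -0.51 without IDH2 KO female 3 and -0.29 without all 3 libraries that stood apart. 2700060E02Rik, now Rtraf, encodes an RNA-binding protein of the tRNA ligase complex and ranged from 115 to 286 CPM in IDH2 KO livers, against 90.1 to 170 CPM in WT livers. The 286 CPM was that of IDH2 KO female 3, and the next IDH2 KO library had 169 CPM. WT female 2 (90.1 CPM) and WT male 2 (103 CPM) lay below all other libraries. 2900097C17Rik, a lncRNA that GENCODE places at chr2:156388065-156392979 of GRCm38, was among the steadiest of the first 12, with 76.2 to 140 CPM in IDH2 KO livers, against 81.3 to 138 CPM in WT livers. RefSeq lists that clone name under both Norad and Bscl2, so neither symbol was given to it.

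**Figure D2:**
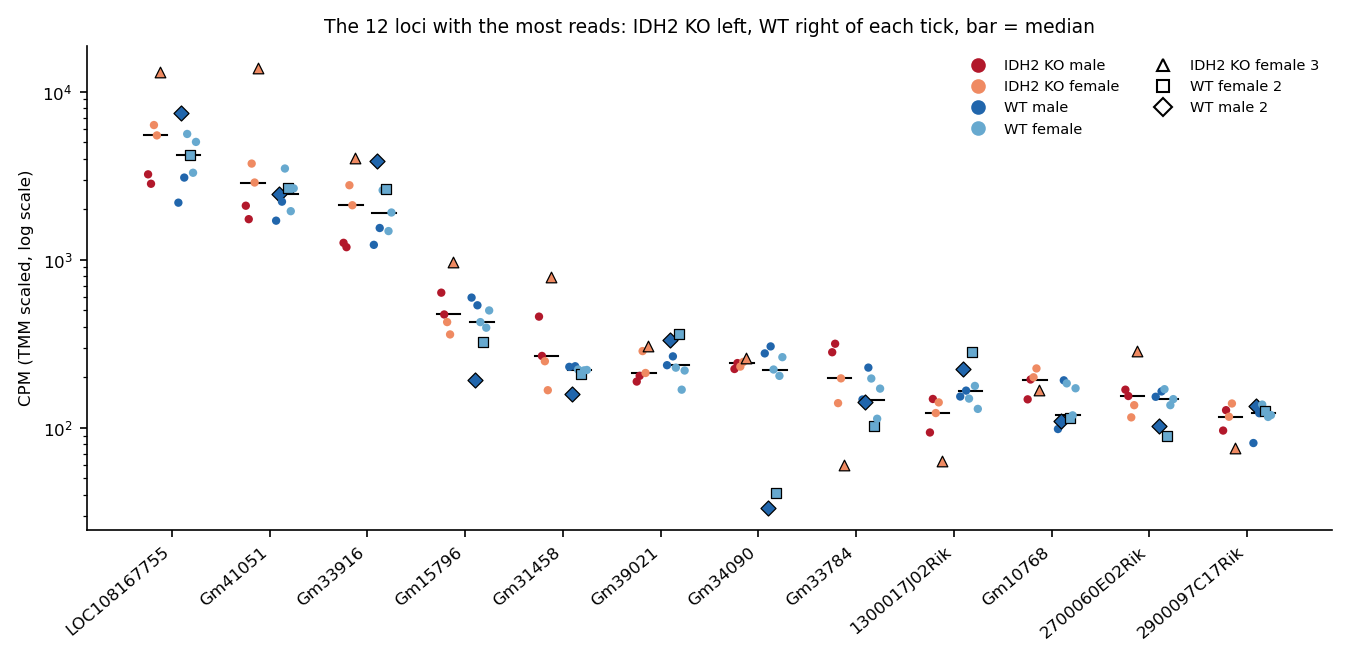
CPM (log scale) of the 12 loci with the most reads in the 5 IDH2 KO libraries (left of each tick) and the 7 WT libraries (right), with the median of each as a bar. Triangles mark IDH2 KO female 3, squares WT female 2 and diamonds WT male 2, and Gm34090 shows the last 2 at 40.7 and 33.4 CPM, far below the other libraries.

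Read counts favour long transcripts, so the 125 loci with an exon model were also ranked per kilobase of GENCODE exon. Where different loci are set side by side in reads or CPM elsewhere in the text, no correction for length was made. On this RPKM scale the highest level was that of Gm15796, a pseudogene with a GENCODE model of 204 bases, at 2353 ± 865 RPKM (SD, n = 12). Gm15151, a pseudogene of 177 bases, came next at 570 ± 325 RPKM and Gm31458 after it at 217 ± 121 RPKM. Gm31458 and the next in order, the lncRNA Gm32950 at 149 ± 62.3 RPKM, differed by less than the SD of Gm31458. RefSeq draws Gm15796 over a longer span than GENCODE does, and the gene models used for counting are not stated, so these levels depend on the model. LOC108167755, Gm41051 and Gm33916 had no GENCODE model and no place in this order.

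WT female 2 and WT male 2 departed from their groups in the same loci. Over the 200 loci, the deviations of these libraries from their group means had a correlation of 0.811, against 0.430 over all genes tested, which is a description of 2 libraries that share no stated batch. In 41 of the 200 loci (20.5%) both libraries lay below all 10 others, against 5.59% of all genes tested. In 11 loci (5.50%) both lay above all others, against 5.84% of all genes tested. Both libraries also had a low share of mitochondrial transcripts, as given above, and the part of that in these values was not tested.

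Most of the clearest examples, picked after their values were seen, were lncRNAs. Gm34090, on chromosome 6, had 40.7 CPM in WT female 2 and 33.4 CPM in WT male 2, while the other 10 libraries lay between 204 and 305 CPM. Gm41133 had 4.79 and 1.25 CPM in the same libraries, against 19.3 to 47.0 CPM elsewhere, and Gm31897 had 11.3 and 6.69 CPM, against 39.5 to 98.0 CPM elsewhere. The reverse was seen for Gm15396, a GENCODE antisense lncRNA on chromosome 7 that shares 48.0% of its 50-base words with other transcripts, chiefly Napsa. It had 141 CPM in WT female 2 and 120 CPM in WT male 2, against 7.94 to 37.4 CPM elsewhere. Gm40961 had 24.1 and 34.9 CPM in the pair, against 3.48 to 10.7 CPM elsewhere. In each of these 5 loci the 2 WT libraries had no overlap with the other 10, IDH2 KO libraries included.

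**Figure D3:**
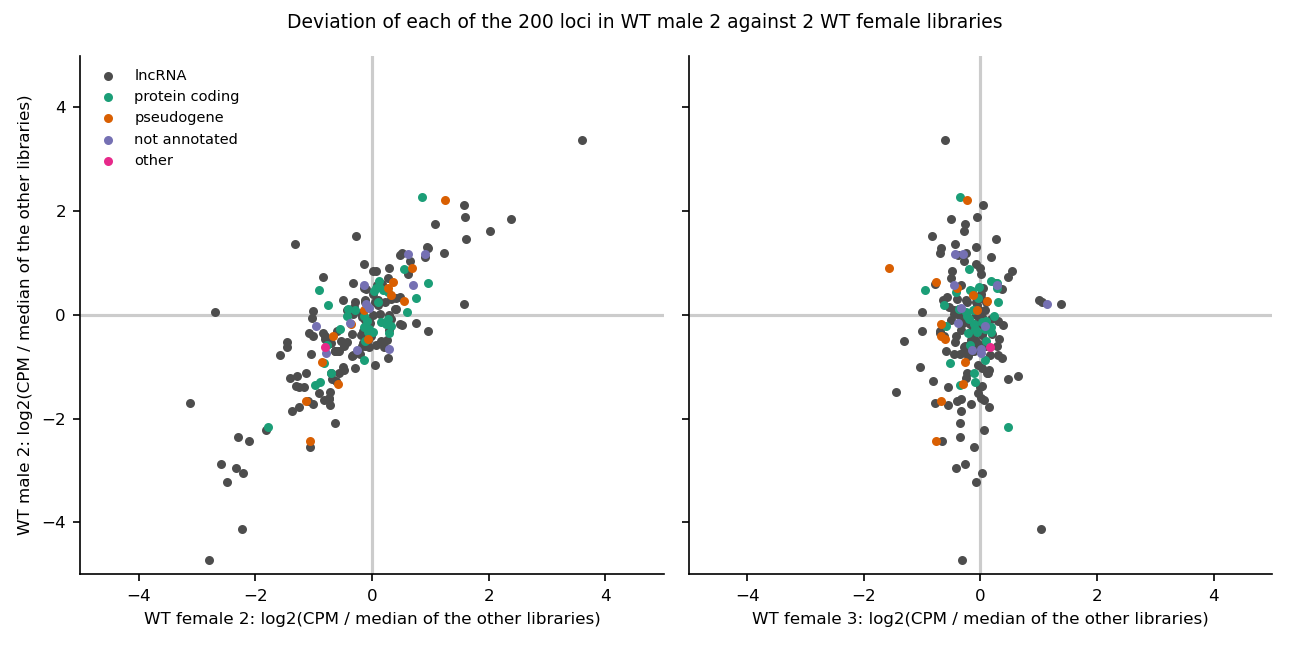
Each point is a locus, placed by the log2 ratio of its CPM in WT male 2 to the median of the other libraries (vertical) and by the same ratio for WT female 2 (left) or WT female 3 (right). The points run along the diagonal for WT female 2, with Gm15396 at the upper right and Gm41133 at the lower left, and not for WT female 3.

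IDH2 KO female 3 held the highest value of 84 of the 200 loci (42.0%) and the lowest of 44 (22%), against 28.1% and 30.9% of the 6546 genes with reads in all libraries. WT male 2 held the lowest value of 48 loci (24.0%), against 11.5% of those genes. The median coefficient of variation over the 12 libraries was 39.97% for the 200 loci and 43.5% for all genes tested, with 32.5% for the protein-coding members, 42.4% for the lncRNAs and 58.0% for the pseudogenes. The 200 were chosen by their summed reads, and the genes set beside them were not matched for read number. These percentages are therefore not like for like, here or in other comparisons with all genes tested. The steadiest locus was 2810004N23Rik, a protein-coding gene (14.1%), at 13.1 to 22.4 CPM in IDH2 KO livers, against 15.2 to 19.7 CPM in WT livers. It was followed by 2610507I01Rik (14.7%) and C030006K11Rik (16.2%). The most variable were Gm15396 (138%), Gm36012 (131%), the pseudogene LOC102637947 (129%) and LOC105244333 (110%).

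The 14 pseudogenes were set beside the protein-coding transcript that each matched best. Their parents are housekeeping genes for the most part, among them translation factors and ribosomal proteins, so a 50-base read that fits both copies has 2 possible homes, and the treatment of such reads in counting is not stated. The stretches below are the 60 bases with the most differences from the parent within its coding part, free of gaps. Capitals mark the bases that differ. These stretches show where a 50-base read could best tell copy from parent, not what reads met along the whole copy. Gm15796, at chr5:38507463-38507666 (plus strand) of GENCODE's GRCm38 annotation, differs from Eef1a1, the translation elongation factor 1 alpha 1, at 8 of 60 bases.
Gm15796: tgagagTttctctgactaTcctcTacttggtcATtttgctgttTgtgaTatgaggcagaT
Eef1a1: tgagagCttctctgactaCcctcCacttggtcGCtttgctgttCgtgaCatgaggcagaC
Gm15151, at chrX:151758017-151758193 (minus strand), differs from Usmg5, a small subunit of the mitochondrial ATP synthase, at 2 of 60 bases.
Gm15151: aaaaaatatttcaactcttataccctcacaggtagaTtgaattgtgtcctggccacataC
Usmg5: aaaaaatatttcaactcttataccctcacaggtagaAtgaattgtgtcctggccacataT
Gm5093, at chr17:46439578-46440097 (minus strand), differs from Rpl11, a protein of the large ribosomal subunit, at 3 of 60 bases.
Gm5093: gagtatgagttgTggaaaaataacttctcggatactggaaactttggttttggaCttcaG
Rpl11: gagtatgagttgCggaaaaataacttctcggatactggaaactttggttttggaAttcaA
Gm8203, at chr6:116173737-116174123 (plus strand), is identical to H2afz, which encodes the histone variant H2A.Z, over its whole 387 bases, so no base is in capitals.
Gm8203: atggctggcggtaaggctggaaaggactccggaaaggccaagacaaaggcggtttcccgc
H2afz: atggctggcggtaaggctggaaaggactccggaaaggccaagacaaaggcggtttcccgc

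Gm15796, at rank 4 of the 200, had 426, 360, 969, 637 and 473 CPM in IDH2 KO females 1 to 3 and males 1 and 2, against 193, 426 and 596 CPM as the lowest, median and highest in WT livers, with overlapping ranges. The reads divided between copy and gene in different ways. Gm15796 had 112154 reads summed over all libraries and Eef1a1 1288028, at 94.6% identity over 204 bases. LOC102634709 had 12049 reads and Rps14 58294, and LOC102637947 had 7220 and Rplp1 79012, both genes encoding a ribosomal protein. These totals were not corrected for length, and Gm15796 matches only bases 1306 to 1509 of the Eef1a1 transcript. They therefore do not rank the levels of copy and gene. In these pairs the coding gene held most of the reads.

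Other pairs ran the opposite way. Gm15151 had 23047 reads and Usmg5 7630, and Gm12618 had 5099 reads and Rpl21, another ribosomal protein gene, 834. Gm8203 had 3178 reads and H2afz 3, and Gm5093 had 2806 reads and Rpl11 3, although both are widely expressed housekeeping genes. U2af2 (a splicing factor), Bloc1s1 and Bmi1 were listed at 0 while LOC102640468, Gm7936 and Gm5946, which match them at 91.6%, 97.3% and 97.0% identity, had 5495, 4202 and 2120 reads. The share of exact 50-base words held in common with other transcripts differed among the pseudogenes. All of the 50-base words of Gm8203 and 74.7% of those of Gm5879 also occur in other transcripts, against 18% for Gm15151, 1.61% for LOC102640468 and 0.645% for Gm15796. Values of the pseudogenes with a large shared part are uncertain. The mismatches allowed in placing reads are not stated, so a small shared part does not make a value certain. Gm32618 matched the olfactory receptor gene Olfr887 only on the opposite strand (5305 reads and 0). Over all 125 loci with a GENCODE sequence, 35 shared no 50-base word with another transcript, 64 shared under 5% of their words and 7 shared 50% or more.

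**Figure D4:**
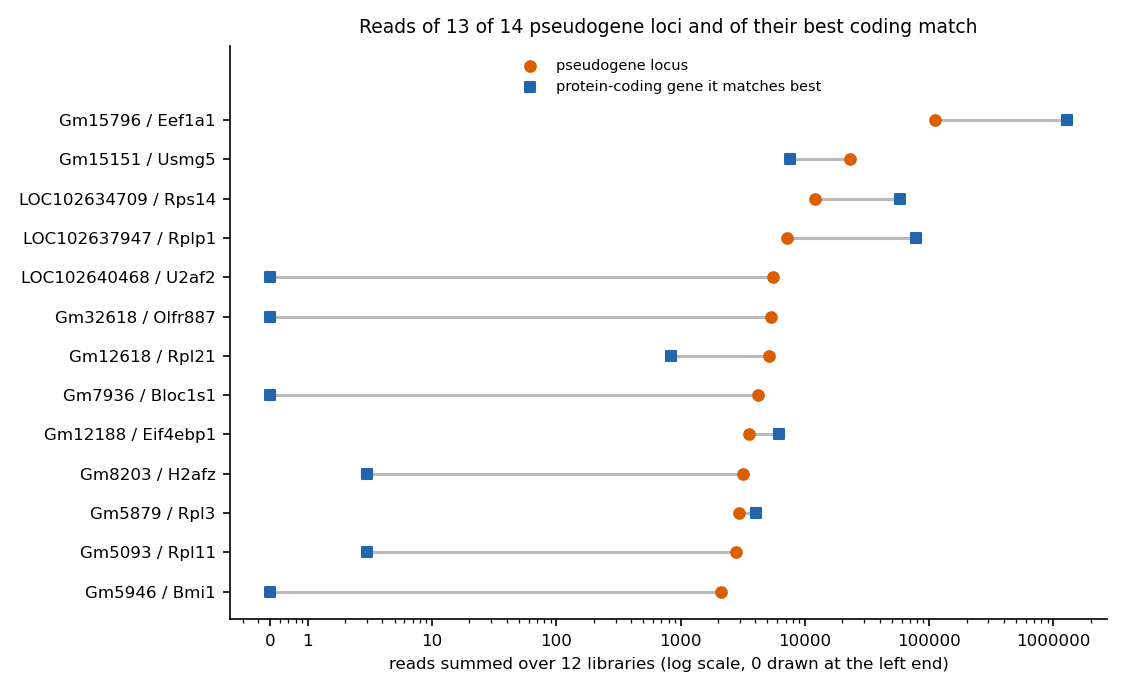
Reads summed over the 12 libraries (log scale, with 0 at the left end) for 13 of the 14 pseudogene loci (circles) and the protein-coding gene each matches best (squares). Gm8203 and Gm5093 had 3178 and 2806 reads beside 3 reads on each coding gene, whereas Gm15796 had 112154 beside 1288028 for Eef1a1.

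Overlap with better known genes was the other source of doubt. Overlap was taken over whole gene spans, introns included. Of the 200 loci, 93 overlapped another RefSeq gene, and for 54 the overlapping gene with the most reads was on the opposite strand. It is not stated whether the counting used strand, so reads of such partners cannot be told apart where their exons overlap. In 10 loci the overlapping gene had more reads than the locus. Gm41999 overlaps Car3, carbonic anhydrase 3 (512448 reads), Gm16548 overlaps F5, coagulation factor V (161243 reads), and Gm39079 overlaps Acsm1, a medium-chain acyl-CoA synthetase (40839 reads). In 51 loci, by contrast, the overlapping gene with the most reads had under 100.

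Several of the 37 protein-coding members have since received names. Among them were 6 proteins of mitochondria, a group put together after their values were seen. 2410015M20Rik is Micos13, a subunit of the complex that shapes the inner membrane, with 88.2 ± 42.5 CPM in IDH2 KO livers and 70.8 ± 10.3 CPM in WT livers. IDH2 KO female 3 had its highest value, and the means differed by less than the IDH2 KO SD. LOC102631912 is Ndufb1, a subunit of respiratory complex I, with 38.8 ± 22.5 CPM in IDH2 KO livers and 39.8 ± 36.4 CPM in WT livers, where WT male 2 alone had 120 CPM and the mean without it was 26.4 ± 9.41 CPM. Without IDH2 KO female 3 its IDH2 KO mean was 28.9 ± 5.18 CPM. 1110001J03Rik is Fmc1, an assembly factor of the ATP synthase, with 26.2 ± 18.01 CPM in IDH2 KO livers and 15.2 ± 2.45 CPM in WT livers, and its IDH2 KO mean without IDH2 KO female 3 was 18.8 ± 8.22 CPM. 9430016H08Rik is Maip1, which guides the calcium uniporter regulator EMRE, 1500011K16Rik is Mtln, a micropeptide, and 0610009O20Rik is Dele1, a relay of mitochondrial stress. None of the 6 passed the test between genotypes, with log2 fold changes from -0.11 to 0.78 and adjusted p from 0.690 to 0.980 (edgeR). Other renamed members were 0610011F06Rik (Mettl26), 1110008F13Rik (Rab5if), 2310036O22Rik (Trir), 2810428I15Rik (Rex1bd), 1110004E09Rik (Cfap298) and 5830473C10Rik (Albfm1, a relative of albumin).

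Between genotypes, a single locus of the 200 passed the test. With edgeR's quasi-likelihood model of sex and genotype over 7618 genes, 0.381% of all genes tested passed at an adjusted p under 0.05 (0.171% higher and 0.21% lower). Among the 200 loci 0 were higher and 1 was lower in IDH2 KO livers, a share of 0.5% near that background. At an unadjusted p under 0.05 there were 19 higher, against 3.47% of all genes, and 8 lower, against 3.24% of all genes, together 13.5% of the 200, against 6.71%. With DESeq2 there were 1 higher and 1 lower, 1% of the 200, against 0.827% of all genes. In bulk tissue, fewer cells of a type and less RNA per cell cannot be told apart, here or in any comparison that follows.

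The locus was Gm29779. It had 4.42, 12.4 and 7.10 CPM in IDH2 KO females 1 to 3 and 3.76 and 4.3 CPM in IDH2 KO males 1 and 2, against 15.1, 21 and 30.5 CPM as the lowest, median and highest in WT livers. The 2 genotypes did not overlap, which was true of this locus alone among the 200 and, in the same direction, of 0.446% of all genes tested. The log2 fold change was -1.86 ± 0.30 (SE; adjusted p = 0.00982, edgeR), or 3.63-fold lower in IDH2 KO livers. It was -1.85 without IDH2 KO female 3 (adjusted p = 0.00626) and -1.97 without the 3 libraries that stood apart (adjusted p = 0.00320). Gm29779 was in neither annotation, so its place in the genome, a neighbour and a sequence are not given here. Within each sex it was also lower in IDH2 KO livers, by -1.54 ± 0.37 in females (adjusted p = 0.210) and -2.36 ± 0.47 in males (adjusted p = 0.111), and neither passed the test of edgeR's group model.

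Of the loci that did not pass, those with the smallest p had higher values in IDH2 KO livers. Gm21286, on chromosome 4 among the major urinary protein genes, is a lncRNA in RefSeq and an unprocessed pseudogene in GENCODE, and 70.4% of its 50-base words occur in other transcripts, chiefly the urinary protein pseudogene Mup-ps16. It had 8.05, 8.38, 11.8, 16.5 and 36.1 CPM in IDH2 KO livers, against 1.27, 5.21 and 8.51 CPM as the lowest, median and highest in WT livers (log2 fold change 1.5 ± 0.39, adjusted p = 0.230, edgeR). Without WT female 4 its adjusted p was 0.0218. Gm15151, the copy of Usmg5 shown above, had 72.2, 80.2, 235, 188 and 116 CPM in IDH2 KO livers, against 53.5, 72.4 and 95.5 CPM in WT livers (0.94 ± 0.28, adjusted p = 0.417), and 0.55 without IDH2 KO female 3. Gm34921, which overlaps Dusp6, had 10.8, 10.6, 20.2, 17.7 and 20.1 CPM in IDH2 KO livers, against 2.50, 7.88 and 12.5 CPM in WT livers (1.21 ± 0.36, adjusted p = 0.395).

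As a whole the 200 loci lay slightly above the other genes in IDH2 KO livers, and this rested on the libraries that stood apart. The median log2 fold change between IDH2 KO and WT livers was 0.15 for the 200 loci, with 130 above 0, and -0.00 for all genes tested. It was 0.06 without IDH2 KO female 3, against 0.01 for all genes, and -0.00 without that library, WT female 2 and WT male 2, against 0.02 for all genes. By class the median was 0.14 for the 137 lncRNAs, 0.14 for the 37 protein-coding members and 0.48 for the 14 pseudogenes, of which 12 were above 0. Of those 14, 11 had their highest value in IDH2 KO female 3, and without it their median was 0.14 with 8 above 0, while that of the protein-coding members was -0.04 with 16 above 0 and that of the lncRNAs 0.09 with 85 above 0, the same count as with all libraries.

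Tested within each sex, none of the 200 loci passed. In females 0 loci passed with edgeR, against 0.174% of all 8644 genes tested, with 22 (11%) at an unadjusted p under 0.05, against 5.25% of all genes, while DESeq2 called 3 (1.5%), against 0.659% of all genes. In males 0 passed, against 0.0925%, with 9 (4.5%) at an unadjusted p under 0.05, against 4.27% of all genes, while DESeq2 called 2 (1%), against 0.497% of all genes. The interaction of genotype and sex was passed by 0 loci and by 0% of all genes, with 11 loci (5.5%) at an unadjusted p under 0.05, against 3.17% of all genes, and DESeq2 called 0 as well.

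Between the sexes 6 of the 200 loci passed. Sex differences are a known feature of mouse liver. The pulsatile release of growth hormone in males and its steadier release in females reach hepatocytes through the transcription factor STAT5b, and cytochrome P450 and major urinary protein genes are the textbook examples of the outcome. In the model of sex and genotype 2 loci were higher and 4 lower in males, 3.00% of the 200, against 1.98% of all genes tested (0.827% higher and 1.16% lower). At an unadjusted p under 0.05 there were 35 loci (17.5%), against 12.2% of all genes. Without scaling factors the split was 3 higher and 1 lower, that over all genes was 73 higher and 46 lower, against 63 higher and 88 lower with them, and the median of all genes tested moved to 0.28 on the log2 scale, from 0.01 with them. The promoters of 3 of the 6 loci are shown here, from RefSeq's GRCm38 table, because they belong to the locus higher in males under every setting tried, the other locus higher in males and the locus with the largest difference. Each runs from 250 bases before to 50 bases after the start of the transcript, with capitals at every match on either strand to the STAT motif TTCNNNGAA (a spaced palindrome), the TATA box motif TATAAA, the CCAAT box or the C/EBP core motif TTGCNNAA.
Gm12915, chr4:124751305-124751604, minus strand, with 3 matches to CCAAT: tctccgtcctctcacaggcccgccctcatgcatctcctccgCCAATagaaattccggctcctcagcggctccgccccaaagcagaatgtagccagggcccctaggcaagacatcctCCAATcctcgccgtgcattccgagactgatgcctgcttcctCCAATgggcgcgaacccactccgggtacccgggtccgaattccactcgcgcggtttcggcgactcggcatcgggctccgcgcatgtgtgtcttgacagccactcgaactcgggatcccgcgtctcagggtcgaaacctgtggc
Gm31583, chr16:24090016-24090315, minus strand, with 1 match to TTGCNNAA: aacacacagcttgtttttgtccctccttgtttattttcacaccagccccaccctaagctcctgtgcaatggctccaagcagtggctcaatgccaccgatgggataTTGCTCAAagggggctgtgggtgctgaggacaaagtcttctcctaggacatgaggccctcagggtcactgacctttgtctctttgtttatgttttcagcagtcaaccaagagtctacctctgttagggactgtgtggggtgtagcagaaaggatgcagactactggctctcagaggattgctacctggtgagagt
Gm36012, chr4:101551152-101551451, minus strand, with 1 match to TATAAA: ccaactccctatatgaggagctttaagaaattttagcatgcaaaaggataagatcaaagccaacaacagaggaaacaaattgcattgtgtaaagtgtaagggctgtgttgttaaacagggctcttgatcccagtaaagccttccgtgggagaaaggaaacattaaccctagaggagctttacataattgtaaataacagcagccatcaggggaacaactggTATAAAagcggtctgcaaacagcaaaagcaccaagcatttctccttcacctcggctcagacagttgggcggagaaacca

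Gm12915 was the locus with the smallest p. It is a lncRNA on chromosome 4 that overlaps Inpp5b, a phosphoinositide phosphatase gene, on the opposite strand. It had 9.53 and 23.1 CPM in IDH2 KO males and 16.5, 14 and 31.0 CPM in WT males, against a lowest value of 2.05, a median of 3.95 and a highest value of 6.66 CPM over the 7 females. Males and females did not overlap, as in 2 of the 200 loci (1%) and 1.23% of all genes tested in this direction. The log2 fold change of males over females was 2.29 ± 0.34 (SE; adjusted p = 0.00132, edgeR), and it passed in all 23 alternative settings, from 2.04 to 2.53. Within WT animals it was 2.51 ± 0.45 (adjusted p = 0.0154) and the only one of the 200 to pass, against 0.659% of all genes tested (0.289% higher), but it did not pass there without WT female 4 (adjusted p = 0.0677) or without any of 4 other WT libraries. For Inpp5b the value was -0.41 ± 0.22, with an adjusted p of 0.495.

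Gm31583, a lncRNA on chromosome 16, had 6.26 and 22.6 CPM in IDH2 KO males and 17.7, 19.2 and 22.6 CPM in WT males, against 1.63, 5.56 and 8.15 CPM as the lowest, median and highest in females. IDH2 KO male 1 lay within the female range, and the log2 fold change of 1.77 ± 0.37 (adjusted p = 0.0198, edgeR) did not pass without IDH2 KO male 2 (adjusted p = 0.150), without WT male 3 or without WT female 3. Gm38456, 5 RefSeq transcripts in the same interval between Bcl6 and Lpp, had 15.6 and 15.7 CPM in IDH2 KO males and 7.21 to 12.3 CPM in WT males, against 0.961 to 6.64 CPM in females. These did not overlap either, but the difference did not pass the test (1.29 ± 0.38, adjusted p = 0.121). Bcl6, a transcriptional repressor, and Lpp were both listed at 0.

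Gm36012 had the largest difference between the sexes. This lncRNA on chromosome 4 had 4.70 and 4.72 CPM in IDH2 KO males and 4.62, 6.41 and 5.94 CPM in WT males, against 149, 122 and 186 CPM in IDH2 KO females and 28.6, 10.8, 7.20 and 78.2 CPM in WT females. Every male was below every female, in which direction 5 of the 200 loci (2.5%) and 1.5% of all genes did not overlap. The log2 fold change of males over females was -3.40 ± 0.65 (adjusted p = 0.0102, edgeR). It did not pass without WT female 4 (adjusted p = 0.0592), without IDH2 KO female 3 (0.0509), without IDH2 KO male 1 (0.0516) or without IDH2 KO male 2 (0.0525), nor without the 3 libraries that stood apart (0.0635), though the fold change stayed between -3.72 and -2.87 when single libraries were left out.

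Among females Gm36012 also stood higher with the knockout. The 3 IDH2 KO females, at 122 to 186 CPM, were all above the 4 WT females, at 7.20 to 78.2 CPM. The log2 fold change was 2.26 ± 0.59 and did not pass the test (adjusted p = 0.320, edgeR). Without WT female 4, the WT female with the highest level, it was 3.28 (adjusted p = 0.00950). The interaction of genotype and sex did not pass (adjusted p = 1.00, unadjusted p = 0.0194).

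The other 3 loci lower in males were lncRNAs with smaller differences. Gm34354, on chromosome 13, had 9.26 and 8.97 CPM in IDH2 KO males and 6.93, 11.2 and 9.21 CPM in WT males, against 14.3, 22.2 and 29.7 CPM as the lowest, median and highest in females, with no overlap (log2 fold change -1.20 ± 0.22, adjusted p = 0.00848). D330041H03Rik, on chromosome 17 and opposite to the lipid transporter gene Abca3, had 11.7 and 9.59 CPM in IDH2 KO males and 13.6, 15.5 and 16.9 CPM in WT males, against 22.7, 33.2 and 104 CPM in females, the highest of them IDH2 KO female 3 (-1.61 ± 0.36, adjusted p = 0.0309). For Abca3 the value was -0.92 ± 0.27, with an adjusted p of 0.126. Gm41284, on chromosome 15 within Ctnnd2, had 5.23 and 4.2 CPM in IDH2 KO males and 7.76, 6.82 and 7.75 CPM in WT males, against 9.26, 12.3 and 16.9 CPM in females (-1.06 ± 0.24, adjusted p = 0.0342). Gm8883, on chromosome 1, was the fifth locus with every male below every female, at 5.68 to 11.7 CPM in males, against 13.1 to 19.2 CPM in females, but it did not pass the test (-0.82 ± 0.23, adjusted p = 0.104). These calls rested on single libraries and on the scaling. Without IDH2 KO male 2 none of the 4 loci lower in males passed (adjusted p = 0.0525 for Gm34354, 0.135 for D330041H03Rik and 0.157 for Gm41284), and the count over the 200 was 1 higher and 0 lower. D330041H03Rik also did not pass without IDH2 KO male 1 (0.128), WT male 1 (0.0618), WT male 2 (0.0512), WT female 3 (0.0531) or WT female 4 (0.0592). Gm41284 passed only with all libraries or without WT female 2 or IDH2 KO female 3 among the fits that left out 1 library, the others giving adjusted p from 0.0539 to 0.157. Without scaling factors none of these 3 passed (0.0623 for D330041H03Rik, 0.140 for Gm34354 and 0.180 for Gm41284), with the same sign.

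**Figure D5:**
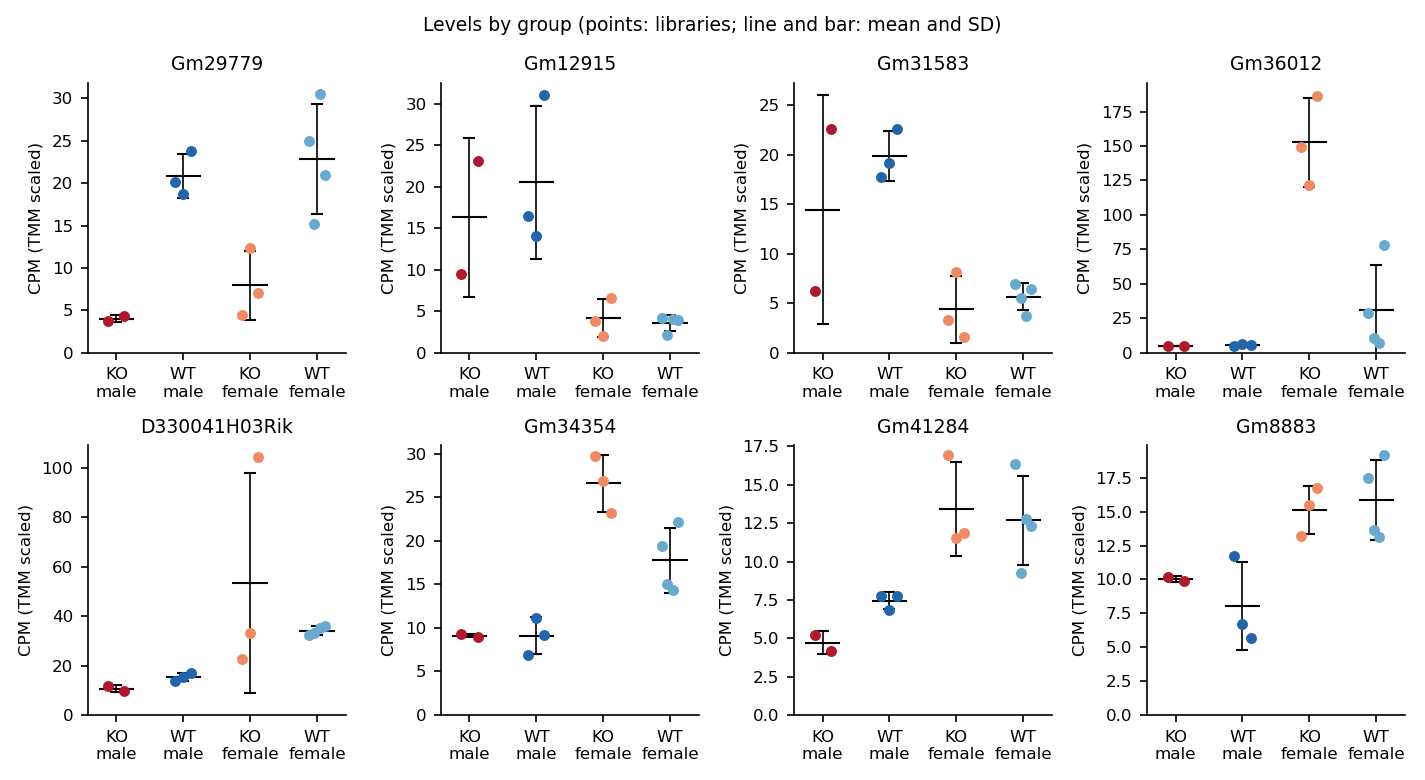
CPM by group for the locus that differed between genotypes (Gm29779), the 6 loci that differed between the sexes and Gm8883, with each library as a point and the mean and SD of the group as a line and bar. Gm29779 is low in both IDH2 KO groups, and Gm36012 is near 5 CPM in all males and highest in the IDH2 KO females.

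The libraries that stood apart also bore on the count between the sexes. Without IDH2 KO female 3 it was 7 higher and 6 lower (6.5% of the 200), against 4.05% of all genes tested. Without that library, WT female 2 and WT male 2 it was 11 higher and 7 lower (9%), against 4.73% of all genes tested.

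RefSeq held promoter windows for 131 of the 200 loci, 148 windows in all. Those of the lncRNAs were poorer in G and C than those of the protein-coding members, with a median of 47.7% and 4 CpG pairs, against 60.7% and 20 CpG pairs, while the median over all 32851 windows of the genome was 52.7% and 7. TTCNNNGAA was found on either strand in 6.08% of the windows of the 200 loci, against 8.30% of all windows, TATAAA in 14.9% against 13.6%, CCAAT in 31.8% against 37.4% and TTGCNNAA in 14.9% against 10.8%. Of the 6 loci that differed between the sexes, 5 had a window, 6 windows in all, and TTCNNNGAA was in 0 of these, TATAAA in 3, CCAAT in 2 and TTGCNNAA in 2. These are matches of letters in a stretch of 300 bases, and they say nothing of binding.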

How the data were processed

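Liver RNA of 12 mice was made into TruSeq libraries and sequenced as 50-base single reads. The authors deposited raw read counts per gene, not normalized, and a filtered count table. FastQC and GRCm38.p5 appear in the submitters' processing notes. The strand setting, the aligner, the counter and the handling of multiply placed reads were not stated. The members and every list were chosen with earlier results of these data known.

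The 200 loci were taken by name pattern and summed counts. Counts were filtered (edgeR 4.0.16 filterByExpr, minimum count 10, minimum total 15), scaled by TMM and tested by the quasi-likelihood test in R 4.3.3, with sex and genotype as terms or with 4 group means, and p-values were Benjamini-Hochberg adjusted over all genes tested (threshold 0.05). Depth was 15323300 to 25019649 counted reads per library, and the labels number the animals within each genotype and sex, with 1 library each. Loci named by rule were the 12 with the most reads, those passing the genotype or sex test, the 5 most and 5 least variable, those at ranks 196 to 205, and up to 3 of each annotation class or parent family. Other loci named (those nearest the threshold, those apart in a pair of WT libraries, those not overlapping between sexes, overlapping pairs and renamed genes) were picked after their values were seen. Annotation came from RefSeq GRCm38.p6 and GENCODE M21, pseudogene matches from blastn 2.17.0, and alternatives used DESeq2 1.42.0 and limma 3.58.1 (log2 of RPM plus 1 or 0.5). The fits were tested on simulated data. Replicate numbers did not pair IDH2 KO with WT libraries of the same sex. The values of 1 pseudogene and its coding match are not reported here.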

Additional observations from a re-analysis of the deposited data

Results flagged for a closer look

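Of 72 groups of 5 or 7 libraries examined for a library far from the others (shares and named loci, by genotype), 13 had a gap above Dixon's limit. Chance gives about 1 in 20 only where loci are chosen without regard to their values. The named loci included the 5 most variable over these libraries and those that differed between the sexes. Each group also held both sexes, so the 13 cannot be weighed against that rate. The share of reads held by the 200 loci was 3.30% in IDH2 KO female 3, where the next IDH2 KO library had 1.73%, and 2.59% in WT male 2, where the next WT library had 1.70%.

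IDH2 KO female 3 was also far above the other IDH2 KO libraries for Gm41051 (13931 CPM, next 3736), D330041H03Rik (104 CPM, next 33.2), LOC105244333 (41.2 CPM, next 10.6), LOC102637947 (171 CPM, next 34.7) and Gm15396 (37.4 CPM, next 13.3). LOC105244333 overlaps Chmp4b, which had 13826 reads, on the same strand. Mitochondrial transcripts took 29.0% of this library's reads, and the part of that in these values was not tested.

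Among WT libraries, WT male 2 was low for Gm31458 (159 CPM, next 208). WT male 1 was low for 2900097C17Rik (81.3 CPM, next 116) and high for LOC102637947 (57.0 CPM, next 20.4), and it was the library in which T, NK and B cell markers summed to 117 RPM and cholangiocyte markers to 63.8 RPM, whose part was not tested. WT female 4 was high for Gm36012 (78.2 CPM, next 28.6) and for LOC105245359 (9.66 CPM, next 7.11), and WT female 1 was high for Gm26730 (20.9 CPM, next 8.41).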

How the results depend on the processing

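Directions of the 15 single-locus fold changes examined held in all 329 alternative fits. Most of the 15 belong to loci that had passed a test in these data, and the fits reuse the same libraries. A kept direction is therefore weak evidence. Counts of loci past the threshold moved more. Between IDH2 KO and WT livers the count was 1, and it was 11 with no filter on low counts (5.5% of the 200, against 1.19% of all genes), 2 with DESeq2 (1%, against 0.827%), and 1 to 2 when single libraries were left out. Numbers in the labels did not pair IDH2 KO with WT libraries of the same sex. Over all genes, deviations of such same-numbered libraries had correlations from -0.15 to 0.07. With the number as a replicate block the count was 0, against 0.131% of all genes, and Gm29779 was at -1.91 (adjusted p = 0.191, edgeR). Within a genotype, same-numbered males and females had correlations from -0.06 to 0.43 over all genes, the highest for WT female 2 and WT male 2. Between males and females the count was 6, and it was 16 with no filter (8%, against 2.64%), 11 with DESeq2 (5.5%, against 4.41%), 1 to 13 when single libraries were left out (0.5%, against 0.996%, and 6.5%, against 4.05%), 18 without WT female 2, WT male 2 and IDH2 KO female 3 together (9%, against 4.73%), and 19 with the replicate block within genotype (9.5%, against 4.58%), under which Gm36012 was at -2.69 (adjusted p = 0.260). Between WT males and WT females the count was 1, and it was 5 with no filter (2.5%, against 1.45%), 3 with DESeq2 (1.5%, against 1.37%), 7 without those 3 libraries (3.5%, against 1.93%) and 0 to 5 when single libraries were left out. Between genotypes in females the count was 0, and it was 8 with no filter (4%, against 0.486%), 3 with DESeq2 (1.5%, against 0.659%) and 0 to 1 when single libraries were left out. In males the count was 0, and it was 1 with no scaling factors (0.5%, against 0.116%), 4 with no filter (2%, against 0.873%), 2 with DESeq2 (1%, against 0.497%), 4 without those 3 libraries (2%, against 0.65%) and 0 to 2 when single libraries were left out. The interaction count was 0 and became 2 with no filter (1%, against 0.278%). Other settings left these counts within 1.5 times. The cause of these shifts was not tested. The share of reads in IDH2 KO and WT livers was 3.07% and 2.36% of reads without mitochondrial transcripts, 3.73% and 2.96% without the 10 most abundant genes, 0.527% and 0.468% without the 5 most abundant loci and 0.623% and 0.530% without the first 3, a smaller numerator or denominator by construction. Leaving out single libraries gave 1.51% to 2.01% in IDH2 KO livers and 1.29% to 1.55% in WT livers. Leaving out the 3 libraries, the block within genotype and leaving out the first 3 loci were chosen after seeing the data.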
